A study of Mus musculus with 24 samples.

Results

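The aryl hydrocarbon receptor (AHR) genes and the Cyp1 family of cytochrome P450 genes that the receptor controls are described here as 7 genes: Ahr, Arnt, Cyp1a1, Cyp1a2, Cyp1b1, Ahrr and Tiparp. They were taken by symbol from the deposited expression tables, in which each of the 7 has an entry among 56895 entries kept. They were chosen with results of these data in view. Cyp1a1 was chosen by its low normalized reads in libraries of the high fat (HF) diet, so its values on that diet are given as a description, with no test. The other 6 were taken as the receptor's partners and targets, and their differences were tested wherever they passed the filter.

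AHR is a transcription factor that waits in the cytoplasm, bound to chaperones, until a ligand enters the cell. Ligands include planar aromatic pollutants, plant indoles and products of tryptophan breakdown. The bound receptor moves to the nucleus, pairs with ARNT and binds DNA sites with the core GCGTG, and Cyp1a1 is its best known target. CYP1 enzymes oxidise the ligands, AHRR competes with AHR for ARNT, and TIPARP modifies AHR with ADP-ribose, so that several targets act back on the receptor.

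The study asked how vitamin D deficiency of the mother before birth bears on the adipose tissue of C57BL/6J mice given a low fat (LF) or HF diet later. Mothers received AIN-93G with 1.0 IU/g vitamin D3 (CTRL) or with 0 IU/g (VDD) for 8 weeks before mating, and all of them the control diet after delivery. From an age of 6 weeks the male and female offspring received either AIN-93M (LF) or a diet with 45% of its energy from fat (HF) for 8 weeks. Retroperitoneal white adipose tissue, the fat pad behind the abdominal cavity, was sequenced in 3 libraries for each of 8 groups, 24 in all. The mice carried no transgene, the VDD mothers were the only ones deprived, and the offspring of both kinds of mother ate the same LF or HF diet. The labels do not say which offspring shared a litter, so the p-values measure the spread between these libraries.

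The depth on genes ran from 13346779 to 18484346 reads a library (median 15933506). Levels are reads divided by a size factor, called normalized reads. The adipocyte markers summed to between 276784 and 800575 normalized reads, and none of the 6 was under 10 reads in every library. Markers of neighbouring tissues reached high sums in some libraries. The skeletal muscle sum ran from 92.5 to 823858 with a median of 1308, highest in a VDD LF male. It was also 293048 and 189452 in VDD HF males, 120491 in a VDD LF female and 54213 in a CTRL LF male. Further high sums were 41662 (VDD LF male), 40009 (CTRL LF female), 30532 (VDD HF female) and 16448 (CTRL HF female). The adrenal marker list summed to 32553 in a CTRL HF female and 18871 in a VDD HF female against a median of 247 over all libraries. In the former, Hsd3b1 was 18350 and Cyp11a1 12775. Cyp11b1 and Cyp21a1 of the same list reached at most 11.9 and 30.6 in any library, both in a VDD HF male. Adrenal is therefore only the name of this list below, and the tissue behind its high sums was not tested. Kidney markers summed to 5650 in a VDD LF female and to at most 18.2 in every other library. Hepatocyte markers, checked because Cyp1a1 and Cyp1a2 are liver enzymes, stayed between 217 and 1070, most of which was Alb (208 to 1049). In bulk tissue, fewer cells of a type and less RNA per cell cannot be told apart.

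All coordinates are on GRCm38, the build named mm10 in the processing notes. Cyp1a1 (chr9:57687928-57703824, plus strand) and Cyp1a2 (chr9:57676937-57683703, minus strand) lie head to head, 4224 bases apart in the GENCODE M21 annotation. Cyp1b1 lies on the minus strand at chr17:79701537-79715061, Ahr on the minus strand at chr12:35497974-35535038, and Ahrr on the minus strand at chr13:74211118-74292331. Arnt (chr3:95434388-95497240) and Tiparp (chr3:65528410-65555518) are both on the plus strand of chromosome 3. All 7 are protein-coding.

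The promoter windows of the 3 Cyp1 genes and of Ahrr are shown because the results below turn on the Cyp1 family and Ahrr is the repressor among the receptor's targets. Each window runs from 250 bases before to 50 bases after the RefSeq start in GRCm38.p6 and is written 5′ to 3′ on the strand of its gene, with every match to GCGTG, or to its reverse complement CACGC, in capitals. The windows are chr9:57697363-57697662 (plus strand, Cyp1a1), chr9:57683606-57683905 (minus strand, Cyp1a2), chr17:79715012-79715311 (minus strand, Cyp1b1) and chr13:74292282-74292581 (minus strand, Ahrr). The Cyp1a1 start of RefSeq lies inside the longer GENCODE gene.
Cyp1a1: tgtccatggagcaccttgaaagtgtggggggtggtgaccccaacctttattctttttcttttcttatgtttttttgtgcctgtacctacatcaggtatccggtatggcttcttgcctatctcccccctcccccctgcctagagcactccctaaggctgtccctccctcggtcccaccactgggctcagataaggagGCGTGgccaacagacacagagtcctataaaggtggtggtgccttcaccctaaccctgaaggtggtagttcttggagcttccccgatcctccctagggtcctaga
Cyp1a2: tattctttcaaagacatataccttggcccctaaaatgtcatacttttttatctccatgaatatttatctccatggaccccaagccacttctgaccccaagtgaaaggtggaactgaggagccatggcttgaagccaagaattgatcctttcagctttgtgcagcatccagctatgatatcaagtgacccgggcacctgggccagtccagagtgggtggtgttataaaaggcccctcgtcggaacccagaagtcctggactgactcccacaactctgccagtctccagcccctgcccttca
Cyp1b1: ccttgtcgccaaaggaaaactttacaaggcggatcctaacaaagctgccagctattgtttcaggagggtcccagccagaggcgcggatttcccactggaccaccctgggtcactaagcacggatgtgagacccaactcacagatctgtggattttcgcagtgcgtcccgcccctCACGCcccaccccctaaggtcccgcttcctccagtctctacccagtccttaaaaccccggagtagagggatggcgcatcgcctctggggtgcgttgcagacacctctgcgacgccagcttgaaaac
Ahrr: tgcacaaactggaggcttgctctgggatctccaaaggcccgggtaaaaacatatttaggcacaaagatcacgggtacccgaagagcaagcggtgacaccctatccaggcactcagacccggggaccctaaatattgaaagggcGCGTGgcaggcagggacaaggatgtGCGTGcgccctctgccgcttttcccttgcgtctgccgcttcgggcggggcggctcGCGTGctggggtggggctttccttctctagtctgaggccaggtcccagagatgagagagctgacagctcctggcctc

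The Cyp1a1 window held 1 match, with its first base at -54 from the start. Cyp1b1 held 1 match on the opposite strand at -76, Ahrr held 3 (at -107, -82 and -27), and Cyp1a2 held none. Arnt held 1 at -29 and Tiparp 1 on the opposite strand at -170, and Ahr has no entry in the table used. Of 32851 promoter windows of the same length, 32.4% held at least 1 match, 3.9% held 3 or more, and 5.1% held the longer form TNGCGTG, as the Ahrr match at -27 did. Matches are overlaps of letters only, and a window without one says nothing of sites farther away.

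Per kilobase of exon, the 7 genes fell into a group of well expressed genes and a group near the limit of detection. Median levels over 24 libraries were 207 normalized reads per kb for Tiparp, 148 for Arnt, 108 for Cyp1b1 and 56.2 for Ahr. The medians of Cyp1a1, Ahrr and Cyp1a2 were 3.67, 1.08 and 0 normalized reads per kb. Cyp1a1 ran from 0 to 72.7 normalized reads per kb, so that its highest library stood above the median of Ahr. For Tiparp the highest library was 1.74 times the lowest, the smallest such ratio of the 5 genes read in every library.

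Cyp1a1, the main ligand-induced P450 of the pathway, was read in every LF library and was at or near 0 in 10 of 12 HF libraries. The CTRL LF males had 203, 162 and 73.6 normalized reads, and all 3 CTRL HF males had 0. The VDD LF males had 1.28, 59.4 and 19.9, against 0.935, 0 and 0.865 in the VDD HF males. The CTRL males did not overlap between diets. The VDD males met at 1 raw read, since the lowest LF library and the HF libraries above 0 each had 1 read, and they separate in normalized reads by their size factors alone. Of all genes tested, 11.7% in CTRL males and 16.5% in VDD males were lower on HF without overlap, and Cyp1a1 was below the filter in the VDD males.

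In females the CTRL LF libraries had 29.7, 3.98 and 79.8 normalized Cyp1a1 reads and the CTRL HF libraries 2.05, 0.958 and 0. The VDD LF females had 41.3, 39.9 and 27.9. The VDD HF females had 0, 153 and 16.5, and this was the only HF group with any library above 3 raw reads. Apart from the CTRL LF males at 203 and 162, its library at 153 was the highest of the series.

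**Figure D1:**
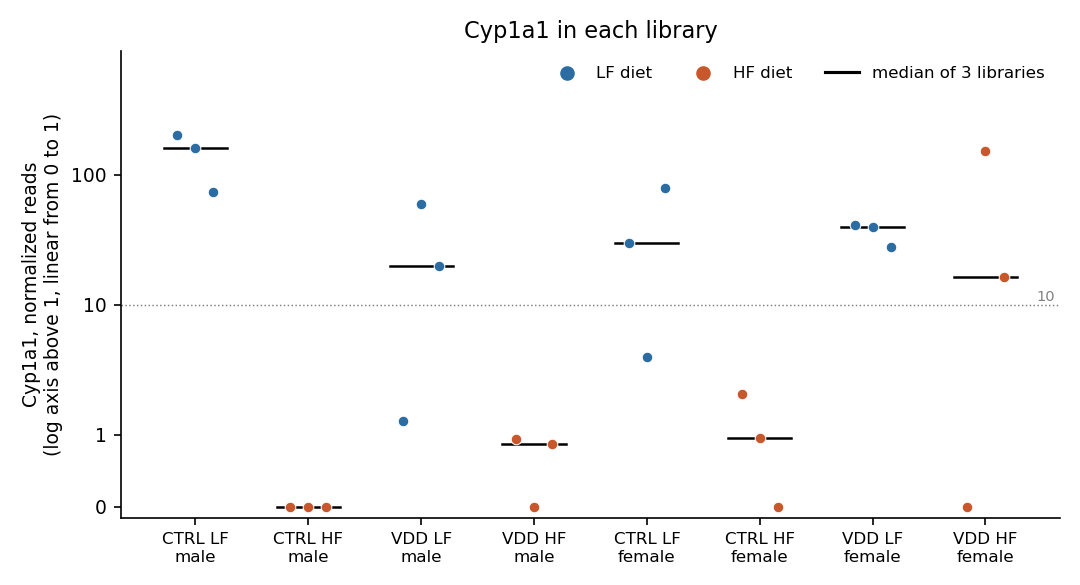
Normalized Cyp1a1 reads (vertical axis, logarithmic above 1 and linear from 0 to 1) in each of 24 libraries by group, with LF in blue, HF in orange, bars at the median of 3 libraries and a dotted line at 10. The CTRL HF males all lie at 0, the CTRL LF males between 73.6 and 203, and 1 VDD HF female stands at 153 among the HF libraries.

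In raw reads, the 12 LF libraries held 679 Cyp1a1 reads and the 12 HF libraries 178, of which 156 came from that single VDD HF female. Of the HF libraries, 6 had no read, 4 had 1 to 3 reads and 2 had more, whereas 10 LF libraries had more than 10 reads. Pooled over each group, CTRL LF males had 391 reads against 0, which is at least 146-fold higher against a floor of 3 reads over the HF group, and the exact 95% counting interval of that ratio begins at 118. VDD LF males had 78 reads against 2, a ratio of 50.2 (95% exact counting interval 13.4 to 422), and CTRL LF females 108 against 4, a ratio of 32.4 (12.3 to 121). These intervals cover counting error only, not the spread between mice, and the reads were counted without molecular identifiers.

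In the VDD females the pooled ratio of LF over HF was 0.566 (0.438 to 0.727, 102 reads against 172), and it became 3.84 (2.26 to 6.97, 102 reads against 16) without the library at 153. The mean of log2 values, which weighs each library alike, was still lower in HF, with an HF minus LF difference of -1.37. It was -3.10 without that library and turned to 0.49 without the VDD HF female at 0. In the other strata the HF minus LF difference in log2 was -7.04 in CTRL males, -3.21 in VDD males and -3.77 in CTRL females. These moved to between -7.47 and -6.75, between -4.53 and -2.16 and between -4.88 and -2.86 as single libraries were left out. On this log2(normalized reads + 1) scale the differences of the low libraries are understated.

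The library at 153 was also the only one with a Cyp1a2 read. Among the 3 VDD HF females it had the lowest macrophage sum (5437, against 7245 and 25357), the highest skeletal muscle sum (30532), the lowest adrenal sum (71.6) and the lowest hepatocyte sum (390). Its stromal sum was the lowest too (14090, against 27751 and 34760), and its endothelial sum the highest (13304, against 9053 and 9194). Their part in the Cyp1a1 level was not tested. Hepatocyte sums separated the CTRL LF males (932 to 1070) from the CTRL HF males (336 to 921) and from the VDD LF males (489 to 795), in the same direction as Cyp1a1, and their part was not tested.

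Ordered by median, the groups ran from the CTRL LF males (162) to VDD LF females (39.9), CTRL LF females (29.7), VDD LF males (19.9), VDD HF females (16.5), CTRL HF females (0.958), VDD HF males (0.865) and CTRL HF males (0). Of neighbours in this order, only the CTRL LF males and the VDD LF females did not overlap.

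Among mice on the LF diet, maternal vitamin D deficiency was compared with a test, as the choice of Cyp1a1 named only its HF libraries. The LF levels may still have entered that choice, since a low level stands out only against a higher one. The 3 VDD LF males (1.28 to 59.4) lay below the 3 CTRL LF males (73.6 to 203). The difference was -3.22 on the log2 scale (SE 1.11, 95% interval -5.85 to -0.58), with an adjusted p of 0.68 by limma over 15438 genes. In that comparison 6.59% of all genes tested were lower in VDD without overlap. The estimate ranged from -4.25 to -1.92 as single libraries were left out, the latter without the VDD LF male that had 1 read. In LF females the groups overlapped, and the difference was 0.67 (SE 0.91, 95% interval -1.47 to 2.81, adjusted p = 0.75 by limma). It turned to -0.43 without the CTRL LF female that had 4 reads. The female response minus the male one was 3.92 in the fit of 24 libraries and was not called. Its p-value is not given, because the spread in that fit includes the HF values. On the HF diet the VDD minus CTRL difference was 0.65 in males and 2.97 in females, given without a test. In females it was 1.22 without the library at 153 and 4.89 without the VDD HF female at 0.

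Cyp1a2, the neighbour of Cyp1a1 and a liver P450, had 1 read in 1 library and 0 in the other 23. At this depth Cyp1a2 was not detected in 7 of the 8 groups, where a count of 0 allows up to 3 reads a group.

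Cyp1b1, the family member expressed outside the liver in mesenchymal cells, was the abundant Cyp1 gene of this tissue, between 349 and 1179 normalized reads. CTRL LF males had 712, 803 and 792 normalized reads and CTRL HF males 386, 485 and 531. All HF libraries of this comparison lay below all LF ones, as did 11.7% of the genes tested. Endothelial sums separated these groups in the opposite direction (9745 to 15839 on LF, 16615 to 17207 on HF), and their part was not tested. The log2 difference was -0.74 (SE 0.18, 95% interval -1.14 to -0.34), with an adjusted p of 0.085 by limma.

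In the VDD males, Cyp1b1 stood at 378, 506 and 649 on LF and at 349, 407 and 890 on HF, a log2 difference of 0.01 (SE 0.39). The skeletal muscle sums of these libraries, in the same order, were 223, 41662 and 823858 on LF and 189452, 293048 and 1417 on HF. Their part was not tested. The VDD HF male at 890 had the highest macrophage sum of all libraries (39623) and a stromal sum of 51814, against 21837 and 24893 in the others of its group. Their part in its level was not tested, and without this library the difference was -0.41. VDD LF males were below CTRL LF males in every library, as for 6.59% of genes tested. The log2 difference was -0.61 (SE 0.22, adjusted p = 0.68 by limma). The hepatocyte sums given for Cyp1a1 separated these groups too, and their part was not tested. The 3 CTRL LF male libraries, which both comparisons share, stood above all 3 libraries of either other group.

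In females, Cyp1b1 was 681, 964 and 755 in CTRL LF, 997, 572 and 1179 in CTRL HF, 608, 683 and 922 in VDD LF, and 563, 502 and 574 in VDD HF. CTRL HF females overlapped the LF ones, and the log2 difference was 0.12 (SE 0.27). VDD HF females lay below every VDD LF female, as did 6.06% of genes tested, with a log2 difference of -0.41 (SE 0.19, adjusted p = 0.84 by limma). The VDD minus CTRL difference on HF was -0.67 (SE 0.26, adjusted p = 0.27 by limma), with overlap. In that comparison the stromal sums were 44033 to 51120 in CTRL and 14090 to 34760 in VDD, and the mesothelium sums 6744 to 12862 and 2210 to 5000, and their part was not tested. The CTRL HF females at 997 and 1179 also had the adrenal sums of 9878 and 32553, whose part was not tested. The VDD HF female with an adrenal sum of 18871 had 574.

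**Figure D2:**
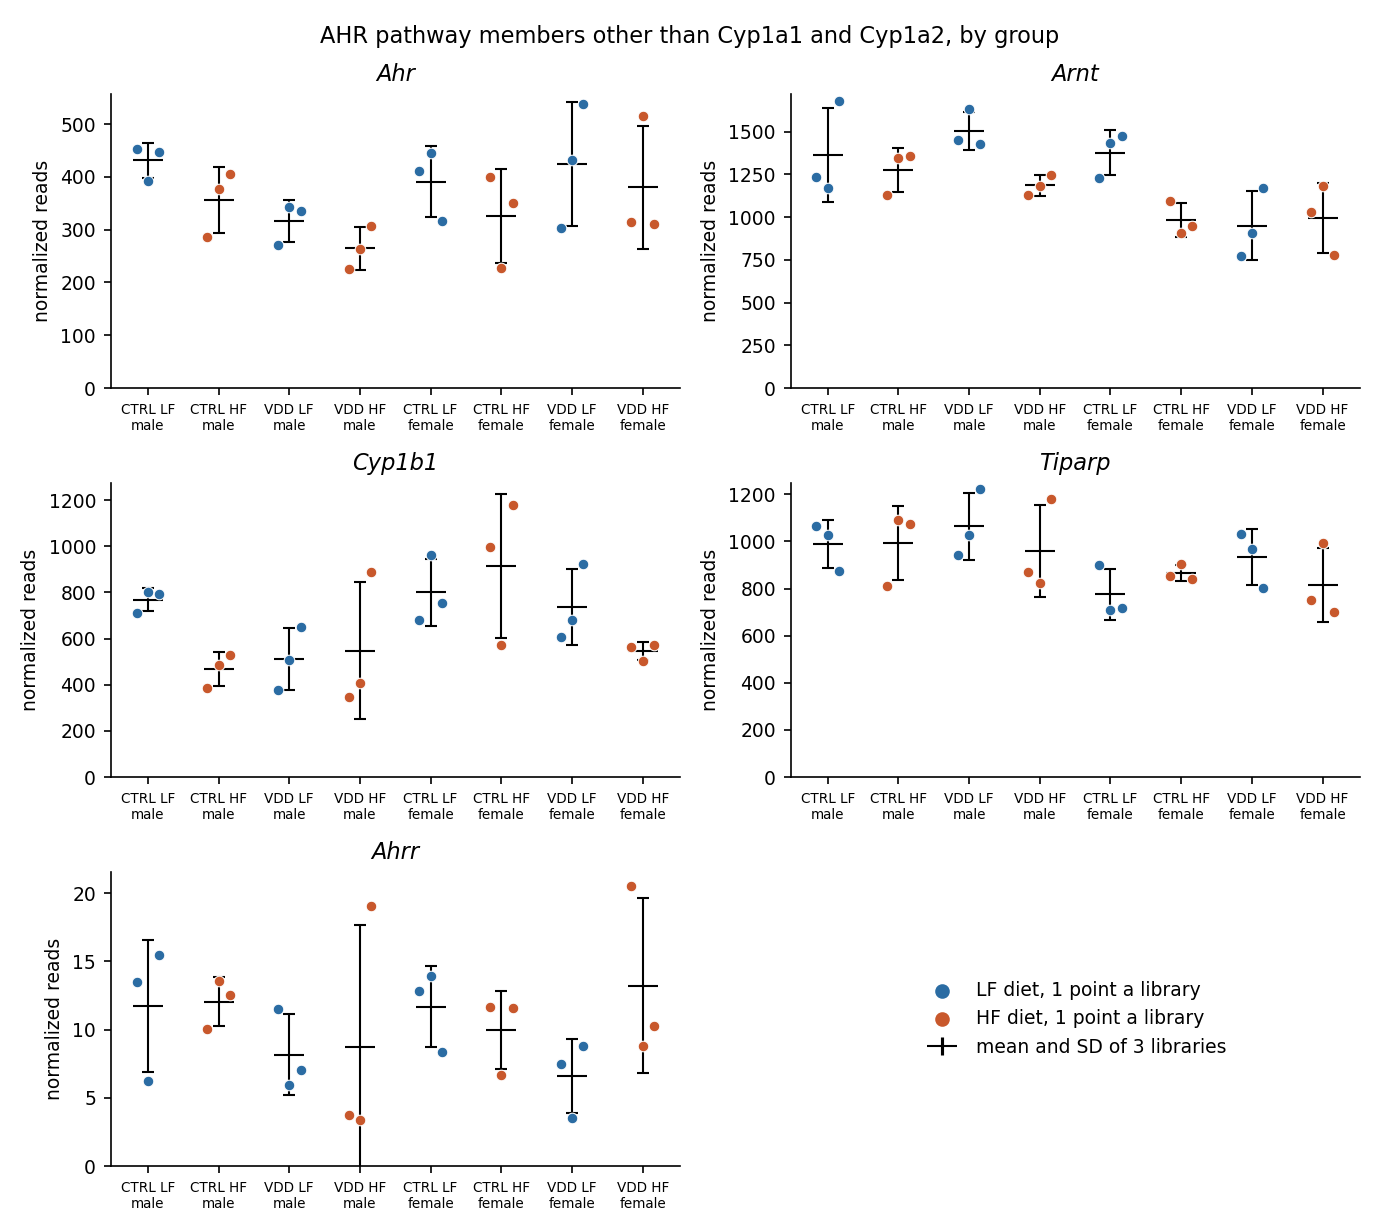
Normalized reads of Ahr, Arnt, Cyp1b1, Tiparp and Ahrr (vertical axes, from 0) in each library by group, with LF in blue, HF in orange, and black marks for the mean and SD of 3 libraries. Cyp1b1 in CTRL males and Arnt in CTRL females separate by diet, and most other pairs of groups overlap.

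Ahr, the receptor, ranged from 225 to 538 normalized reads with a median of 346. CTRL LF males had 454, 393 and 447 and VDD LF males 272, 343 and 335, with no overlap, as for 6.59% of genes tested in that direction. The log2 difference was -0.44 (SE 0.17, 95% interval -0.84 to -0.04), with an adjusted p of 0.69 by limma. On HF the VDD minus CTRL difference in males was also -0.44 (SE 0.19, adjusted p = 0.94 by limma), with 225, 263 and 306 against 287, 377 and 406. Those HF groups overlapped. The hepatocyte sums separated the LF males as given for Cyp1a1, and the endothelial sums separated the HF males (16615 to 17207 in CTRL, 10091 to 15923 in VDD). Their part in the Ahr differences was not tested.

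The HF minus LF difference of Ahr was negative in all 4 strata, between -0.31 and -0.16, and in each of them the groups overlapped. In females the maternal groups overlapped on both diets, with log2 differences of 0.10 on LF and 0.23 on HF. The VDD LF female at 538 and the VDD HF female at 515 were the highest of the series. The latter was the library at 153 Cyp1a1 reads.

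Arnt, the partner without which AHR does not bind DNA, had 772 to 1677 normalized reads. CTRL LF females had 1228, 1432 and 1474 normalized reads and CTRL HF females 1095, 907 and 950, so every HF library was below every LF one. In that comparison 18.2% of all genes tested were lower without overlap. The marker sums of the tissue's cells separated by diet in these females as well. Adipocyte sums were 369599 to 444921 on LF and 276784 to 338165 on HF, stromal sums 22262 to 30239 and 44033 to 51120, macrophage sums 5666 to 8808 and 13359 to 16365, and mesothelium sums 3639 to 4192 and 6744 to 12862. Their part in the Arnt difference was not tested. The log2 difference was -0.51 (SE 0.12, 95% interval -0.79 to -0.23), with an adjusted p of 0.048 by limma. This did not reach the threshold used here, an adjusted p under 0.01 with a fold above 1.5 or below 0.66.

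VDD males had 1449, 1631 and 1427 Arnt reads on LF and 1128, 1180 and 1249 on HF. They also did not overlap, as for 16.5% of genes tested in that direction, and differed by -0.34 (SE 0.12, adjusted p = 0.14 by limma). The skeletal muscle sums of these libraries, given for Cyp1b1, ran from 223 to 823858 on LF and from 1417 to 293048 on HF. Their part was not tested. CTRL males overlapped between diets, at -0.09 (SE 0.19). VDD females did so too, at 0.07 (SE 0.23).

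VDD LF females had 772, 907 and 1171 normalized Arnt reads, all below the CTRL LF females, as for 9.74% of genes tested. The log2 difference was -0.55 (SE 0.17), with an adjusted p of 0.39 by limma. The same contrast in LF males was 0.17 (SE 0.18). The maternal response of females minus that of males on LF was -0.71 (SE 0.24), with an adjusted p of 0.90 by limma. The lowest VDD LF female was the library with the kidney sum of 5650, and without it the female difference was -0.42.

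Ahrr, the repressor, was close to the detection limit, with 3 to 22 raw reads and 3.40 to 20.6 normalized reads per library. It passed the filter of 10 normalized reads in 3 libraries in 5 of 8 comparisons. VDD LF females had 7.52, 3.52 and 8.78 normalized reads and VDD HF females 20.6, 8.83 and 10.3, which did not overlap but lay less than 1 read apart, in a comparison where 5.55% of genes tested were higher without overlap and Ahrr itself was below the filter. Elsewhere the diet groups overlapped. Where it was tested, the log2 differences lay between -0.82 and 0.34 with standard errors of 0.40 to 0.62, so changes of that size were not detectable at this depth.

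Tiparp, the ADP-ribosyltransferase, lay between 701 and 1222 normalized reads. Its diet and maternal differences in the 8 comparisons lay between -0.20 and 0.27 on the log2 scale, and every pair of groups overlapped. The largest, VDD minus CTRL in LF females, was 0.27 (SE 0.15, 95% interval -0.09 to 0.63, adjusted p = 0.48 by limma). In CTRL males, in which Cyp1a1 went from 73.6 to 203 reads to none, Tiparp had 1067, 1028 and 876 on LF and 811, 1090 and 1076 on HF.

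**Figure D3:**
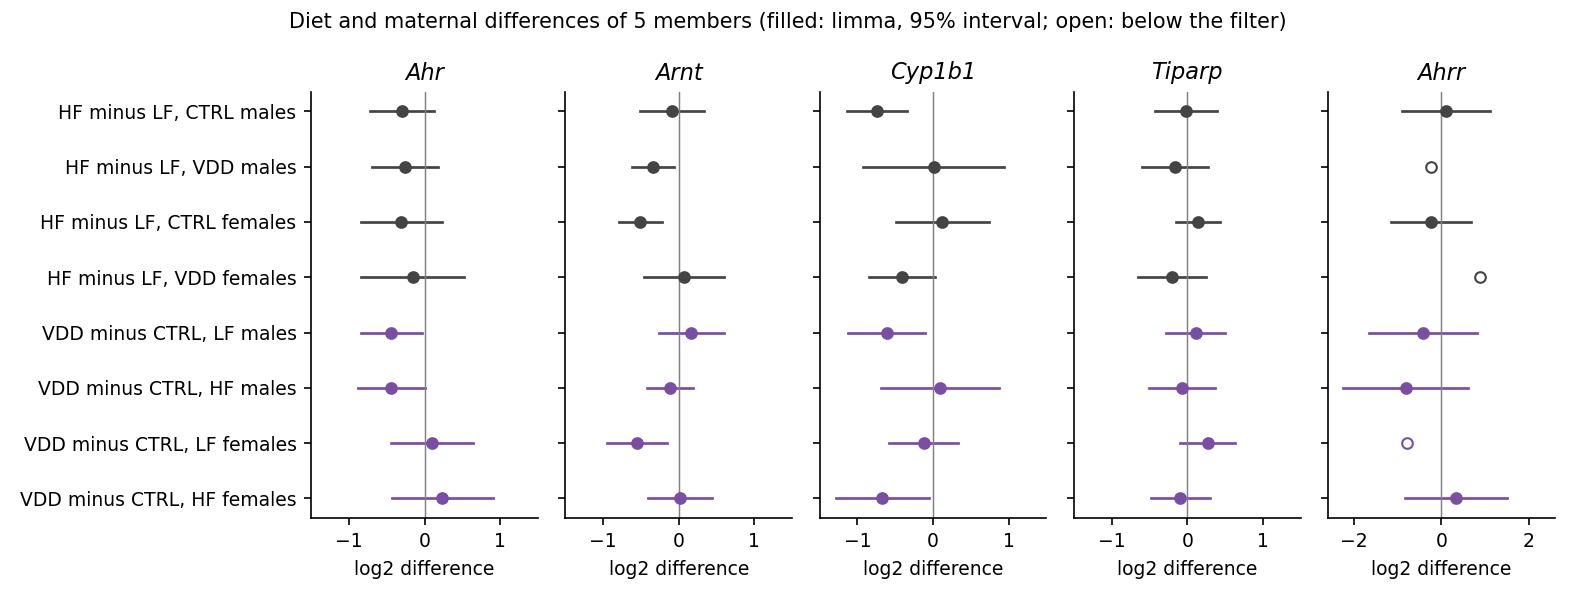
Log2 differences (horizontal axes) of 5 genes in 8 comparisons, 4 of HF minus LF (grey) and 4 of VDD minus CTRL (purple). Filled points are limma estimates with 95% intervals, the lowest -0.82 and the highest 0.34, both for Ahrr (VDD minus CTRL on HF, males and females), and open points are Ahrr values below the filter.

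Across the 8 comparisons, limma called 0 of the members tested at an adjusted p under 0.01 with the fold threshold. The share of all genes called was 0.0578% in CTRL males by diet, 0.0752% in VDD males by diet and 0% in each of the other 6. The study, using DESeq2 with the same adjusted p and fold limits, reported far more genes in each of these 8 comparisons. A count of 0 members here is therefore not a sign that no member changed. Without Cyp1a1, 37 tests were made, 7 of them with an unadjusted p under 0.05, and the smallest adjusted p was 0.048. Each library enters 2 of these comparisons, so they are not independent. Limma-voom on the reads recovered from the deposited values called 0 as well. Over all genes and the same 8 comparisons, 15.0% of tests had an unadjusted p under 0.05.

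Averaged over the 4 strata in a fit of 24 libraries, the HF minus LF difference was -0.21 for Arnt (SE 0.09, adjusted p = 0.072 by limma), -0.25 for Ahr (SE 0.12, adjusted p = 0.13) and -0.25 for Cyp1b1 (SE 0.15, adjusted p = 0.23). It was -0.05 for Tiparp and 0.13 for Ahrr. None of the 5 was called, against 9.44% of all genes. The averaged maternal difference was largest for Ahrr at -0.42 (SE 0.26, adjusted p = 0.34 by limma) and Cyp1b1 at -0.33 (SE 0.15, adjusted p = 0.19). None was called, against 0.103% of all genes.

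Between the sexes, the female minus male difference of Arnt was -0.32 on the log2 scale (SE 0.09, 95% interval -0.50 to -0.15), with an adjusted p of 0.011 by limma. Tiparp was -0.24 (SE 0.08, adjusted p = 0.053) and Cyp1b1 0.41 (SE 0.15, adjusted p = 0.061). None reached the threshold, against 7.27% of all genes. The response terms, which ask whether the diet or maternal difference changes with maternal diet or sex, called 0 members. The diet response of Arnt in VDD minus CTRL females was 0.56 (SE 0.24, adjusted p = 0.77 by limma). Over the averages and response terms without Cyp1a1, 7 of 45 tests had an unadjusted p under 0.05. Over all genes that share was 15.2%. The response terms called 0% of all genes apart from 0.0163% for the diet response by sex in VDD.

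The wider pathway was read from 6 lists, whose choice was not blind to these data. In the averaged diet comparison the median log2 difference of all genes was 0.01, and 5.79% of genes were called higher and 3.65% lower on HF. None of the lists had a gene called in any of the 8 single comparisons or in the response terms, and the averaged maternal comparison called 0 genes of every list.

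The receptor complex and its coactivators were 10 genes, all tested, with a median of 0.04. Src, a kinase held in the AHR complex, rose by 0.77 (SE 0.11, adjusted p = 8.4e-05 by limma), and the other 9 were not called. Of 13 further AHR targets, 11 were tested and 1 was called. Fgf21, a metabolic hormone, was -1.28 (SE 0.33, adjusted p = 0.0072 by limma), and the median was 0.19. Nqo1, the quinone reductase often induced with Cyp1a1, was -0.10 (SE 0.20).

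Enzymes that make or break down tryptophan ligands gave 5 tested of 9 and none called, with a median of 0.07. The values with the smallest p were those of Kmo, kynurenine monooxygenase, at 0.71 (SE 0.32) and of Il4i1, an amino acid oxidase, at 0.22 (SE 0.21). The 5 P450 electron donors were tested and none was called, with a median of -0.35. Pgrmc1, which binds P450 enzymes, was -0.53 (SE 0.10, adjusted p = 0.00062 by limma), past the p threshold but short of the fold. Por, the reductase that passes electrons to all microsomal P450 enzymes, was -0.35 (SE 0.11, adjusted p = 0.017 by limma).

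ARNT also pairs with the hypoxia-inducible factors, and the list of other ARNT partners and hypoxia targets had the lowest median, -0.36. Of 12 genes tested, 3 were called lower on HF and none was called higher, while 7 lower and 1 higher had an unadjusted p under 0.05. In this comparison 5367 of all 18399 genes had an adjusted p under 0.05 by limma. At least that many therefore had an unadjusted p under 0.05. The HF minus LF difference was -1.66 (SE 0.19) for Egln3, an oxygen sensor, -1.14 (SE 0.15) for Pdk1, a brake on pyruvate oxidation, and -0.90 (SE 0.12) for Bnip3, a mitophagy receptor. Their adjusted p values by limma were 1.4e-05, 3.7e-05 and 2.8e-05.

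Of 15 other P450 genes tested, 3 were called lower on HF and none was called higher, while 5 lower and 1 higher had an unadjusted p under 0.05. Of all 18399 genes at least 5367 did so, as given above. The median was -0.10. The difference was -1.48 (SE 0.20) for Cyp2d22, -1.42 (SE 0.21) for Cyp2e1, an ethanol and fatty acid oxidase, and -0.89 (SE 0.20) for Cyp51, a cholesterol synthesis enzyme. Between the sexes, 5 list genes were called, where 4.59% of all genes were higher and 2.68% lower in females. Cyp2f2 was higher in females by 2.63 and Cyp7b1, an oxysterol hydroxylase, by 1.67, while Fgf21, Ugt1a6b and Cyp27a1 had female minus male values of -1.32, -0.85 and -0.74.

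**Figure D4:**
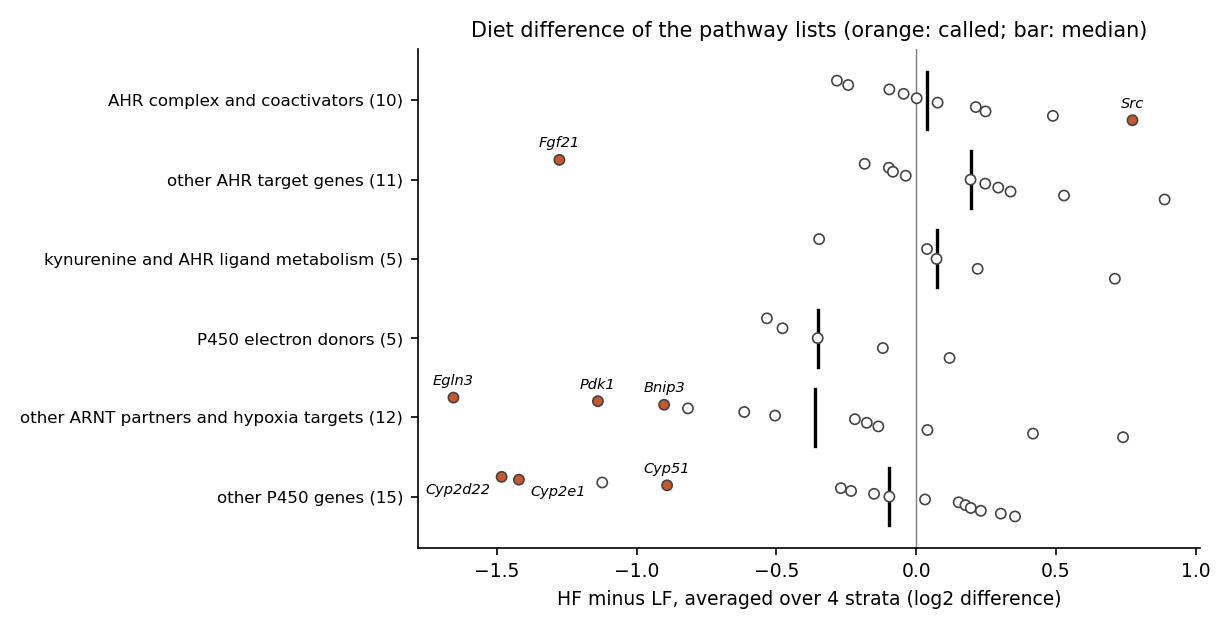
HF minus LF differences (log2, horizontal axis) of single genes in the 6 lists, averaged over 4 strata, with genes called by limma in orange and named, other genes open, and a bar at each list's median. All called genes but Src lie to the left of 0, and the medians run from -0.36 to 0.19.

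Over the 24 libraries, the genes whose log2 levels were most like Cyp1a1, of 18398 compared, were Glyr1 (Pearson r = 0.809), Syn2 (0.804), Slc25a44 (0.795), Sdc4 (0.789) and Ddx27 (0.773). These r values are descriptions over libraries that span both diets, so a shared diet difference enters them, and so do the HF values by which Cyp1a1 was chosen. Within the 12 LF libraries Glyr1 had an r of 0.189 and Syn2, a synaptic vesicle protein gene, one of 0.735. Of the other members, Ahr ranked highest with r = 0.526 (rank 991), followed by Cyp1b1 at 0.258, Tiparp at 0.151, Arnt at 0.128 and Ahrr at -0.169.

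Within the 12 LF libraries, the most alike were Gm36816 (Pearson r = 0.932), Dnajb13 (0.890), XLOC_005349 (0.888), Lep (0.883) and Ehd3 (0.882). Lep encodes leptin, the hormone that adipocytes release in proportion to their fat stores. Its Spearman rho with Cyp1a1 was 0.881, and r was 0.771 without the 2 libraries farthest from the median (n = 10). By rho, genes not named here ranked above all of these, led by Tnfrsf1a (0.937) and Cdc42ep1 (0.930). The LF libraries span both sexes and both maternal diets, so a shared group difference enters r and rho, and its part was not tested. Lep was 2372 to 5372 in CTRL LF males and 117 to 629 in VDD LF males, without overlap, as for Cyp1a1. In LF females the maternal groups overlapped on both genes. The VDD LF male with 1 Cyp1a1 read had the lowest Lep level of the series (117 normalized reads), and the CTRL LF male with 203 Cyp1a1 reads had the highest Lep level of the LF libraries (5372).

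Within the 12 HF libraries the Pearson r of Lep with Cyp1a1 was -0.384 and rho -0.119, and r was 0.412 without the 2 farthest libraries. With at most 3 Cyp1a1 reads in 10 of those libraries, a relation was not detectable there. Mean Lep was 3946 ± 1505 (SD, n = 3) in CTRL LF males and 7528 ± 2297 in CTRL HF males, and it was 399.8 ± 260.5 in VDD LF males and 15320 ± 824 in VDD HF males, while Cyp1a1 was lower on HF. In CTRL females Lep went from 1364 ± 1016 on LF to 8117 ± 5774 on HF and in VDD females from 1966 ± 84.5 to 3864 ± 1272. Over all 24 libraries r was -0.330. The other 4 genes also had a negative r over 24 libraries, between -0.529 and -0.264. The VDD HF female with 153 Cyp1a1 reads had 2879 Lep reads, the lowest of the HF libraries.

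**Figure D5:**
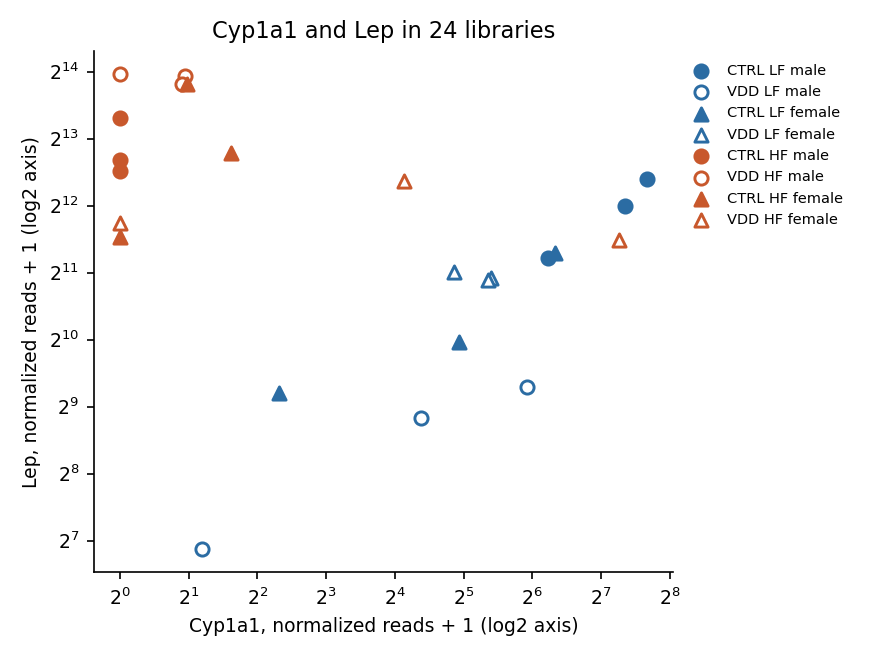
Normalized Lep reads against normalized Cyp1a1 reads, both plus 1 on log2 axes, 1 point a library (circles males, triangles females, filled CTRL, open VDD, blue LF, orange HF). The 12 LF libraries run from low on both genes to high on both (r = 0.883), and the HF libraries sit high on Lep, most of them at the left edge.

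In the annotation, 10 genes lie within 100000 bases of Cyp1a1, and 6 of them passed the filter. Their median levels on LF and HF were 760 and 884 normalized reads for Scamp2, 196 and 198 for Ulk3, and 517 and 729 for Csk. Downstream, Edc3 had medians of 361 and 300, Clk3 of 1144 and 1035, and Arid3b of 101 and 85.4. Cplx3, Lman1l, Cyp1a2 and the antisense gene Gm17231 had at most 3.76 reads in any library. The lowest HF library of the 6 that passed the filter ranged from 60.7 for Arid3b to 810 for Clk3, so none of them was near 0 in any HF library.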

How the data were processed

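RNA was sequenced with a stranded mRNA kit. Per the labels and the study's methods, the authors aligned reads to mm10 with STAR 2.7.0d, added transcripts with Cufflinks 2.2.1, counted with featureCounts 1.6.1 and tested with DESeq2. What the authors deposited is log2(normalized reads + 1) for 6 libraries in each of 8 tables, each table being a single comparison. Their columns of fold changes and p-values were not used. Each table lists 56899 entries, of which 4 whose names look like dates and occur more than once were dropped. Undoing the log2 and the size factor gave whole reads for 100% of values within 0.02, the same in both tables of a library, and these were scaled over all 24 libraries by the median of ratios for levels (size factors 0.778 to 1.462). Within groups, libraries correlated across genes with r from 0.863 to 0.981.

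Groups came from the labels. The tables name libraries by animal and not by the replicate number of the labels, so each column was placed in its group only. Of the 24 library names, 6 contain the word renal, which is not explained in the sources used here. Every group but the HF females of either mother holds some, so in females the name goes partly with diet. On LF they had 203 (CTRL male), 59.4 (VDD male), 29.7 (CTRL female) and 27.9 (VDD female) normalized Cyp1a1 reads. These were the highest of their group in males but not in females, and the part of the name was not tested. Each comparison was fitted to its table with limma 3.58.1 (R 4.3.3, trend), and the averages and response terms in 1 fit of the 24 libraries with a pseudocount of 1. The filter asked for 10 normalized reads or more in 3 or more libraries of a fit. Genes were called where the fold was above 1.5 or below 0.66 and the Benjamini-Hochberg adjusted p was under 0.01. The 7 members were named in every comparison, list genes when called (otherwise the 2 with the smallest p by diet), and the 5 genes most like Cyp1a1 over 24 and over 12 LF libraries. Members and lists were chosen with earlier results of these data known. Exact intervals for read ratios are binomial. Nqo1 was named after its value was seen. The fits were tested on simulated data.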

Additional observations from a re-analysis of the deposited data

How the results depend on the processing

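The number of AHR members called, 0 in each of 17 comparisons, averages and response terms, was recomputed under a pseudocount of 10, no filter on low values, limma-voom, other scalings or joint fits, and with each library left out (0 to 0). Cyp1a1 could be called only in the maternal comparisons and response on LF, and Cyp1a2 was left out. Where a setting called 0 of all genes, 0 members followed, so the count says little there. The number of members called stayed at 0 in 356 of 358 recomputed counts. The exceptions came from an adjusted p under 0.05 with no fold threshold, which called 1 member, Arnt, in CTRL LF vs. CTRL HF females and 1, again Arnt, between the sexes. Leaving out 4 libraries with high muscle, kidney or adrenal sums together, chosen after seeing the data, also gave 0. Other libraries with high sums were kept, among them VDD HF males with muscle sums of 293048 and 189452. A CTRL HF female with an adrenal sum of 9878 was kept too. Of the single log2 differences tested in the main or the alternative setting, 73 changed sign, 62 of them with a library left out. All of these had an unadjusted p of 0.434 or more by limma, or were below the filter in the main setting. Cyp1a1 differences given without a test were not counted. Among them, the HF minus LF difference in VDD females turned to 0.49 without 1 library, as given above. Scaling to total reads moved the median of all genes by 0.16 in the averaged diet difference and by -0.12 in the maternal one. Tiparp changed sign with it, to 0.12 by diet. Of 56 mean levels, 4 moved by more than 1 SD with it. Of the 5 genes most like Cyp1a1, 2 were also among the 5 by Spearman rho and 0 among those of the LF libraries. The number of all genes called depended more on the settings. It went from 9 to 39 without the filter and to 182 without the fold threshold at 0.05 in CTRL males by diet, and from 12 to 613 in VDD males by diet in a fit of the 12 libraries of the sex and to 0 with limma-voom. The causes were not tested. No paired analysis was possible because the columns carry animal numbers and not the replicate numbers of the labels. With 3 libraries a group, and few Cyp1a1, Cyp1a2 and Ahrr reads on HF, the data limit what could be seen of the low members.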
